A study of Mus musculus with 6 samples.

Results

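The genes described here are Hmox1 and 9 other genes of heme metabolism and iron handling, measured in mouse Neuro2a neuroblastoma cells with and without knockdown of the transcription factors USF1 and USF2. They are Hmox1, Hmox2, Blvra and Blvrb of heme breakdown, Alas1 and Fech of heme synthesis, Tfrc and Slc11a2 of iron import, Fth1 of iron storage and Slc40a1 of iron export. Hmox1 was picked on its small p-value in the same comparison of knockdown with control that is described below, and the 9 others were added for their function. The values of Hmox1 are therefore given as a description with no p-value, and where it enters a count of calls that is a consequence of the choice and no evidence. All 10 genes were found, each through 1 transcript cluster (the set of probes that reads a gene), among 16583 genes with a name of their own on the array.

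The 6 samples were cultures of 1 cell line read on Affymetrix Mouse Gene 1.0 ST arrays. The control group was 3 samples transfected with an empty vector. The knockdown group was 3 samples transfected with plasmids that express artificial microRNAs against USF1 and USF2 (labelled USF1,2-RNAi). The RNAi plasmids, built separately for each factor in a vector that also encodes the fluorescent protein EmGFP, were delivered by lipofection. The labels do not say whether transfected cells were enriched before RNA extraction. Samples of a group are called biological replicates, but separate cultures are not stated, and the p-values then cover only the spread among these arrays, part of which may be technical.

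Heme is an iron-containing porphyrin that serves as the cofactor of cytochromes and many other enzymes. Cells make it in a chain of enzymes that begins and ends in mitochondria, and the heme oxygenases open its ring, which releases iron, carbon monoxide and biliverdin, later reduced to bilirubin. Iron enters most cells on transferrin, is kept safe inside ferritin shells and leaves through ferroportin. Free heme and free iron promote oxidation, and in neural cells as elsewhere HMOX1 is the oxygenase that is induced by heme and oxidative stress, under the activator NRF2 and the heme-sensing repressor BACH1. The knocked-down factors bind, as dimers, the E-box CACGTG.

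Each value is a log2 signal relative to the gene's own median over the 6 arrays, so arrays can be compared for 1 gene but the level of a gene is not known and genes cannot be ranked by level. A change is the mean of the knockdown arrays minus the mean of the empty vector arrays on this scale. The rounding of the numbers shows whether a gene's signal before centring lay between 8 and 16 (the brighter class, 44.1% of genes) or between 4 and 8 (the dimmer class). Blvra was the only one of the 10 genes in the dimmer class, and 9 were brighter. Both targets were lower on the knockdown arrays. Usf1 lay between 0.18 and 0.43 with empty vector and between -0.28 and -0.18 with knockdown, and Usf2 between 0.12 and 0.28 and between -0.22 and -0.12. The groups did not overlap for either target (exact two-sided permutation p = 0.10, the smallest that 3 against 3 arrays can give), and the limma adjusted p over all genes was 0.320 for Usf1 and 0.348 for Usf2. Knockdown array 2 had a wider spread over all clusters (SD 0.159) than the other arrays (0.0531 to 0.0780), with dimmer clusters shifted up (median 0.0706) and brighter ones down (-0.0282), so values without it are given for the results it moves most.

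Hmox1, the inducible heme oxygenase, had the widest separation between the groups among the 10 genes. Its values were -0.19, -0.17 and -0.11 on empty vector arrays 1, 2 and 3, and 0.11, 0.13 and 0.24 on knockdown arrays 1, 2 and 3. All knockdown arrays lay above all empty vector arrays, with knockdown array 3 the highest. The empty vector mean was -0.16 ± 0.042 (SD, n = 3). That of the knockdown arrays was 0.16 ± 0.065 (SD, n = 3). This is a change of 0.32 ± 0.050 (SE), a 1.25-fold difference. Over all 16583 genes this was the change with rank 4 from the highest, and 0.103% of genes had a larger change in either direction. As Hmox1 was picked on its p-value in this comparison, its rank and wide separation follow largely from the choice. Without any 1 array the change of Hmox1 lay between 0.29 and 0.35, and it was 0.34 without knockdown array 2. In RNA from whole cultures, more cells that express a gene and more RNA of it per cell cannot be told apart.

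Hmox2, the constitutive oxygenase that is abundant in brain, had a change of the opposite sign. It was at 0.0056, 0.066 and 0.068 on empty vector arrays 1, 2 and 3 and at -0.029, -0.0056 and -0.012 on knockdown arrays 1, 2 and 3. The groups lay on separate sides, but the gap between them was narrow, as empty vector array 1 and knockdown array 2 were both close to 0. The change was -0.062 ± 0.041 (SE, 95% interval -0.16 to 0.033) or 0.958-fold. The difference Hmox1 minus Hmox2 within an array was -0.20, -0.24 and -0.18 with empty vector and 0.14, 0.14 and 0.25 with knockdown. This difference follows largely from the choice of Hmox1 and is a description only, and as each gene is centred on its own median it does not show which oxygenase was the more abundant.

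The biliverdin reductases, which turn biliverdin into bilirubin, both had lower means with knockdown. Blvra, the reductase of the biliverdin that heme oxygenase makes, was at 0.095, 0.030 and 0.014 on the empty vector arrays and at -0.014, -0.20 and -0.053 on the knockdown arrays. Knockdown array 2 was by far the lowest of these. The change of Blvra was -0.13 ± 0.058 (SE, 95% interval -0.27 to 7.5e-05) or 0.911-fold, and -0.080 without knockdown array 2. Blvrb, which reduces flavins and other biliverdin isomers, was at 0.014, 0.090 and 0.021 with empty vector and at -0.014, -0.020 and -0.035 with knockdown. Its change was -0.064 ± 0.042 (SE, 95% interval -0.16 to 0.033), and -0.040 without empty vector array 2, the highest array. For both reductases each knockdown array lay below each empty vector array.

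**Figure D1:**
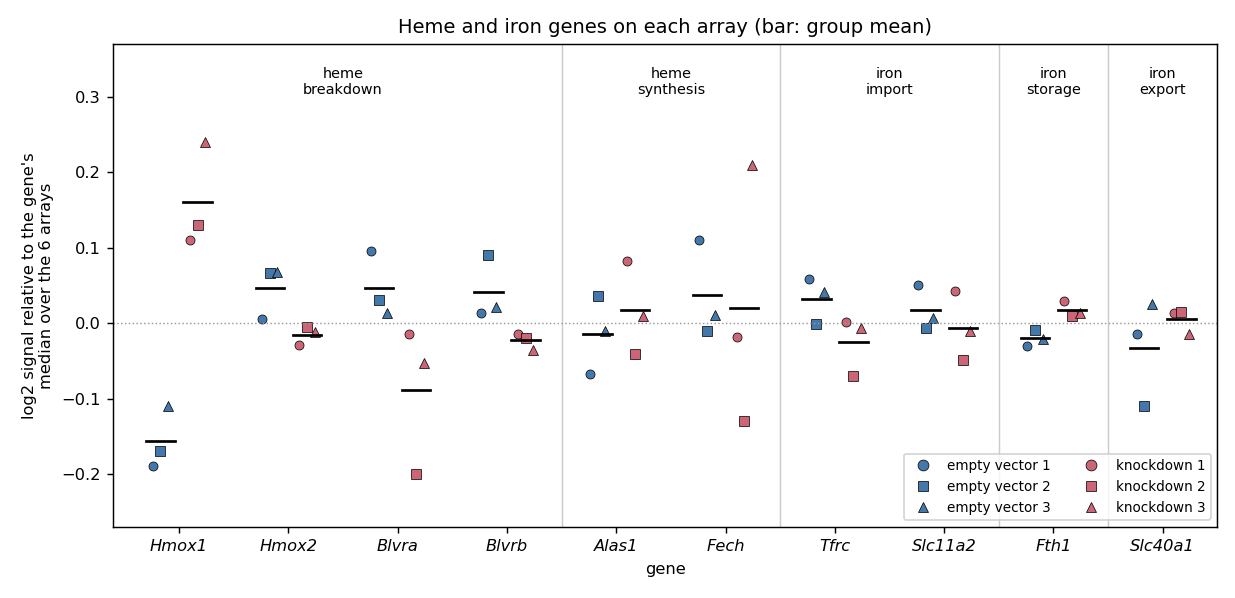
Log2 signal of the 10 genes relative to each gene's median over the 6 arrays, by role, with 3 empty vector arrays (blue) and 3 knockdown arrays (red) as points, array numbers as marker shapes and group means as bars. Hmox1 runs from -0.19 to -0.11 with empty vector and from 0.11 to 0.24 with knockdown, while Hmox2, Blvra and Blvrb lie slightly lower with knockdown, and Fech is spread widely within the knockdown group.

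The first enzyme of heme synthesis and the last showed no separation of the groups. Alas1, the rate-limiting aminolevulinate synthase that heme represses, was at -0.068, 0.036 and -0.010 with empty vector and at 0.082, -0.041 and 0.010 with knockdown. The groups overlapped, and the change was 0.031 ± 0.051 (SE, 95% interval -0.087 to 0.15). It was -0.0017 without knockdown array 1 and 0.060 without knockdown array 2, so its sign is not settled. Fech, the ferrochelatase that inserts iron into protoporphyrin, was at 0.11, -0.011 and 0.011 with empty vector and at -0.019, -0.13 and 0.21 with knockdown. Its knockdown arrays thus spanned a wider range than the empty vector arrays, from the lowest to the highest value of the 6. The change of Fech was -0.019 ± 0.085 (SE, 95% interval -0.22 to 0.18), and it turned to 0.056 without knockdown array 2 and to 0.018 without empty vector array 1.

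The iron importers had small negative changes. Tfrc, the transferrin receptor whose messenger RNA is stabilised when iron is scarce, was at 0.058, -0.0018 and 0.041 with empty vector and at 0.0018, -0.070 and -0.0067 with knockdown. The groups overlapped only through empty vector array 2 and knockdown array 1, and knockdown array 2 was the lowest. The change of Tfrc was -0.057 ± 0.043 (SE, 95% interval -0.16 to 0.043), and -0.035 without knockdown array 2. Slc11a2, the divalent metal transporter that carries iron out of endosomes, was at 0.051, -0.0064 and 0.0064 with empty vector and at 0.042, -0.049 and -0.011 with knockdown. The groups overlapped, and the change of -0.023 ± 0.044 (SE, 95% interval -0.13 to 0.079) was -0.0017 without knockdown array 2 and positive, 0.030, with array quality weights.

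Fth1, the ferritin heavy chain that oxidises iron for storage, had a small difference with very little spread. It was at -0.031, -0.0091 and -0.021 with empty vector and at 0.029, 0.0091 and 0.014 with knockdown. All knockdown arrays lay above all empty vector arrays, but the distance between the groups was small, with a change of 0.038 ± 0.039 (SE, 95% interval -0.052 to 0.13) or 1.03-fold. The standard error is wider than the spread of these arrays because limma draws the variance of a gene towards that of all genes. Slc40a1, the iron exporter ferroportin, was at -0.014, -0.11 and 0.025 with empty vector and at 0.014, 0.015 and -0.014 with knockdown. Its groups overlapped, and the change of 0.038 ± 0.048 (SE, 95% interval -0.074 to 0.15) rested on the low empty vector array 2, without which it was -0.00034.

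Over the 10 genes, 0 passed an adjusted p of 0.05 in limma, against 0.00603% of all genes. At an unadjusted p under 0.05 limma counted 1 of the 10, which is Hmox1, picked on that p, against 1.60% of all genes higher and 2.65% lower. The groups did not overlap for 2 genes higher with knockdown (Hmox1 and Fth1) and 3 lower (Hmox2, Blvra and Blvrb), against 4.33% and 5.95% of all genes. Without knockdown array 2 the counts were 0, 1 and 5. In that fit 7.53% of all genes had an unadjusted p under 0.05 in limma, and 23.9% had groups that did not overlap. The median change of the 10 was -0.021, with 4 above 0 and 6 below, and turned to 0.015 without knockdown array 2. The median size of a change regardless of sign was 0.0476 for the 10 and 0.0399 over all genes. As the genes were assembled around Hmox1 with this comparison known, the counts describe them and support nothing further. For the 9 genes other than Hmox1 an absent call does not show that the gene was unaffected, as the intervals above reach from -0.27 at their lowest to 0.18 at their highest.

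**Figure D2:**
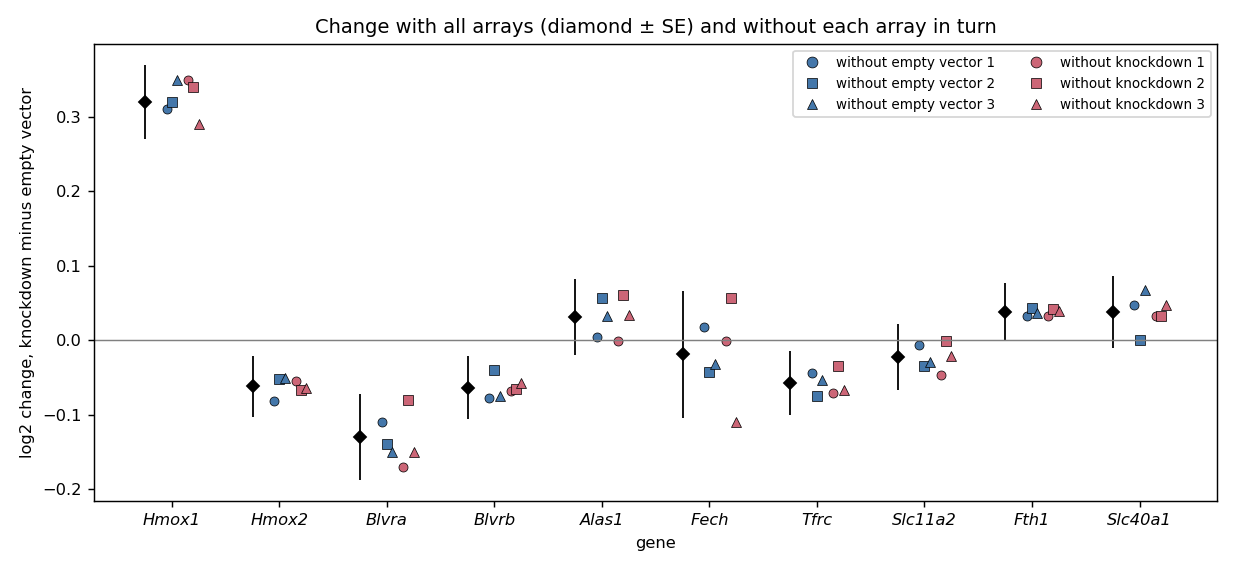
Log2 change (knockdown minus empty vector) of each of the 10 genes with all arrays (black diamond with SE) and with 1 array left out in turn (blue, an empty vector array; red, a knockdown array). Hmox1 stays between 0.29 and 0.35, Hmox2, Blvra, Blvrb and Tfrc stay below 0 and Fth1 above 0, while Alas1, Fech and Slc40a1 cross 0.

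The other genes of the pathway were taken from lists made by function. Of 60 such genes, 53 were measured, and 0 of the 53 passed in limma over all genes in either direction. At an unadjusted p under 0.05 the count in limma was also 0, against 1.60% of all genes higher and 2.65% lower. The groups did not overlap for 4 of the 53 higher and 4 lower, against 4.33% and 5.95% of all genes. The median change was -0.0031 (-0.00066 over all genes), and without knockdown array 2 it was -0.012 (-0.0087 over all genes). The spread ran from -0.13 to 0.090, and none of the 53 had a change as large as that of Hmox1. That follows largely from the choice of Hmox1 on its p-value in this comparison and is a description only.

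Heme synthesis was represented by 11 further genes of 12 listed, 7 with a change above 0 and 4 below, at a median of 0.015 (0.0087 without knockdown array 2). Cpox, the mitochondrial coproporphyrinogen oxidase, was at -0.018, -0.069 and -0.028 with empty vector and at 0.092, 0.018 and 0.042 with knockdown, a change of 0.089 ± 0.043 (SE). Urod, the cytosolic enzyme that acts just before it, went the other way, with 0.012, 0.032 and 0.040 with empty vector and -0.038, -0.012 and -0.062 with knockdown, a change of -0.065 ± 0.040 (SE). For these consecutive enzymes the groups did not overlap, in opposite directions. They were the only such genes of the 11, 1 higher and 1 lower, against 4.33% and 5.95% of all genes. Uros, which makes the substrate of Urod, had a change of -0.085 ± 0.055 (SE) with overlapping groups. Each had a limma adjusted p of 0.996. Of the 8 genes of heme transport and binding, 2 were above 0 and 6 below (median -0.015, and -0.0038 without knockdown array 2). They included the heme and folate transporter Slc46a1 (0.090 ± 0.063, SE), the heme-binding Hebp1 (-0.062 ± 0.059) and hemopexin, Hpx (0.066 ± 0.074). Hpx was at 0.22 on knockdown array 2, but at 0.015 and -0.069 on knockdown arrays 1 and 3.

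Among the further iron genes the storage list had the highest median change, 0.042 over 5 genes. Ftl1, the ferritin light chain and partner of Fth1, was at -0.051, -0.055 and 0.0023 with empty vector and at 0.037, -0.0023 and 0.062 with knockdown. Its change was 0.067 ± 0.043 (SE), of the same sign as that of Fth1, but its groups overlapped through empty vector array 3 and knockdown array 2. Pcbp2, a chaperone that delivers iron to ferritin, had a change of 0.042 ± 0.040 (SE) and the mitochondrial ferritin Ftmt one of 0.045 ± 0.069. Ftmt was at 0.13 on knockdown array 2, but at -0.0071 and -0.062 on knockdown arrays 1 and 3. The 7 further import genes had a median of 0.013 (-0.020 without knockdown array 2), with Slc39a8 at 0.040 ± 0.061 (SE), Slc25a28 at 0.028 ± 0.057 and transferrin, Trf, at 0.045 ± 0.10. Each of these was highest on knockdown array 2, at 0.16, 0.14 and 0.23, but Trf was nearly as high on empty vector array 1, at 0.22. On knockdown arrays 1 and 3 Slc39a8 was at -0.070 and 0.024, Slc25a28 at -0.013 and -0.019 and Trf at 0.019 and -0.019. Of the 3 further export genes listed, 1 was measured. This was hephaestin, Heph, a ferroxidase that works with ferroportin, at 0.024, 0.026 and 0.040 with empty vector and at -0.024, -0.057 and -0.17 with knockdown. Its change was -0.11 ± 0.050 (SE, limma adjusted p = 0.996), in the dimmer class.

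The sensors of iron and heme gave a median of -0.0031 over 11 genes (-0.019 without knockdown array 2). Bach1, the repressor of Hmox1 that heme inactivates, was at 0.050, -0.0071 and 0.054 with empty vector and at -0.031, 0.0071 and -0.030 with knockdown. The groups overlapped through empty vector array 2 and knockdown array 2, and the change was -0.051 ± 0.042 (SE). Ireb2, an iron regulatory protein that binds the messenger RNAs of Tfrc and ferritin, had a change of -0.053 ± 0.049 (SE) and Hjv one of -0.051 ± 0.047. Iron-sulfur cluster assembly, which shares mitochondrial iron with heme synthesis, had 3 genes above 0 and 7 below (10 of 13 measured, median -0.016). Its members with the smallest p were Lyrm4, a small partner of the cysteine desulfurase (-0.083 ± 0.043, SE), the co-chaperone Hscb (-0.13 ± 0.069) and the glutaredoxin Glrx5 (-0.066 ± 0.044).

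**Figure D3:**
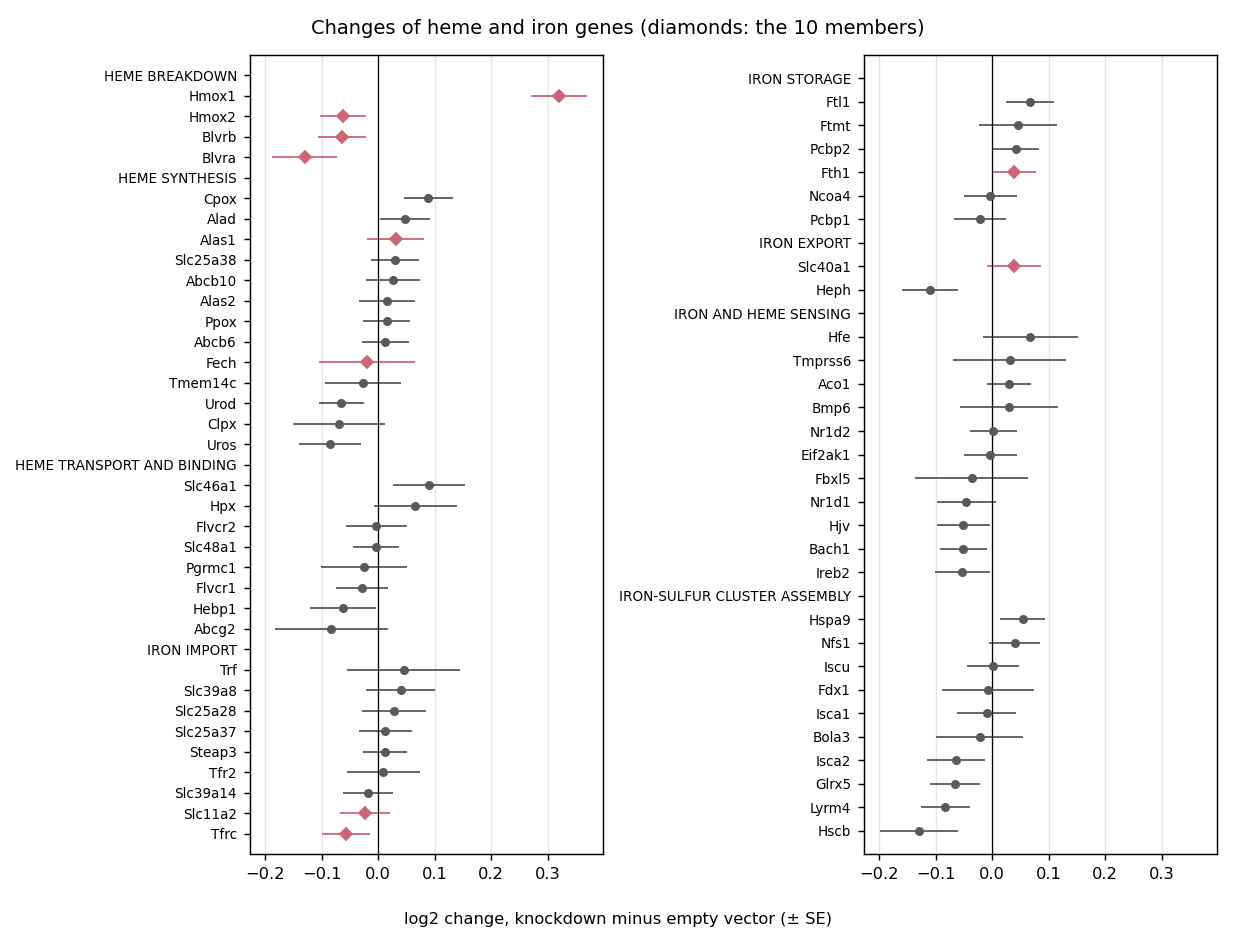
Log2 change (knockdown minus empty vector) with its standard error for the 10 genes (red diamonds) and the 53 other measured genes of heme and iron handling (grey circles), grouped by role and sorted by change. Hmox1 at 0.32, picked on its p-value in this comparison, lies outside the range of the 53 others, which runs from -0.13 to 0.090.

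Hmox1 is also a target of NRF2, and the other genes of that pathway were divided between both signs. Of 16 listed, 15 were measured, with 7 above 0 and 8 below at a median of -0.010 (0.0056 without knockdown array 2). In limma 0 of them passed over all genes. At an unadjusted p under 0.05 there was 1, Keap1, against 1.60% of all genes higher and 2.65% lower. Keap1, the adaptor that marks NRF2 for degradation, was at 0.032, 0.065 and 0.072 with empty vector and at -0.036, -0.032 and -0.043 with knockdown, a change of -0.093 ± 0.039 (SE, limma adjusted p = 0.996) in the dimmer class. Nqo1, a quinone reductase and classic NRF2 target, was at -0.018, 0.15 and 0.070 with empty vector and at 0.018, -0.13 and -0.020 with knockdown, a change of -0.11 ± 0.061 (SE) with overlapping groups. Gclm, a subunit of the enzyme that starts glutathione synthesis and also an NRF2 target, was at -0.0022, -0.047 and -0.081 with empty vector and at 0.0022, 0.017 and 0.12 with knockdown, a change of 0.090 ± 0.049 (SE). Gclm and the autophagy receptor Sqstm1 (0.045 ± 0.040, SE) were the 2 genes of this list whose groups did not overlap with knockdown higher. Keap1 was the 1 with knockdown lower. Over all genes these shares were 4.33% and 5.95%, and Gclm and Sqstm1 are named because their values were seen. The small MAF partner Maff had a change of -0.095 ± 0.051 (SE) and the gene of NRF2 itself, Nfe2l2, one of 0.022 ± 0.045. Hmox1 is also known as a heat shock protein. Of 8 measured heat shock and metallothionein genes (median 0.013), the metallothionein Mt2 was at 0.13 ± 0.075 (SE) and the inducible chaperone Hspa1a at 0.13 ± 0.11, both highest on knockdown array 2 (0.29 and 0.32). The co-chaperone Dnajb1 was at -0.061 ± 0.043 (SE).

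The genes whose 6 array values were most like those of Hmox1, by the smallest root mean square difference among 16582 genes, were Ctsd (0.0470), Mfsd11 (0.0490), Ddit3 (0.0524), Gcat (0.0683) and Ptcd1 (0.0701). The median of this measure over all genes was 0.183. Ctsd, the lysosomal aspartic protease cathepsin D, was at -0.16, -0.16 and -0.12 with empty vector and at 0.15, 0.12 and 0.13 with knockdown. Ddit3, a transcription factor of the integrated stress response, was at -0.21, -0.065 and -0.14 with empty vector and at 0.065, 0.10 and 0.22 with knockdown, with knockdown array 3 the highest. That array was also the highest for Hmox1, Mfsd11, Gcat and Ptcd1, but not for Ctsd. The changes of the 5 ran from 0.20 for Ptcd1 to 0.28 for Ctsd. They were selected on the same 6 arrays, so their separation of the groups adds nothing.

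**Figure D4:**
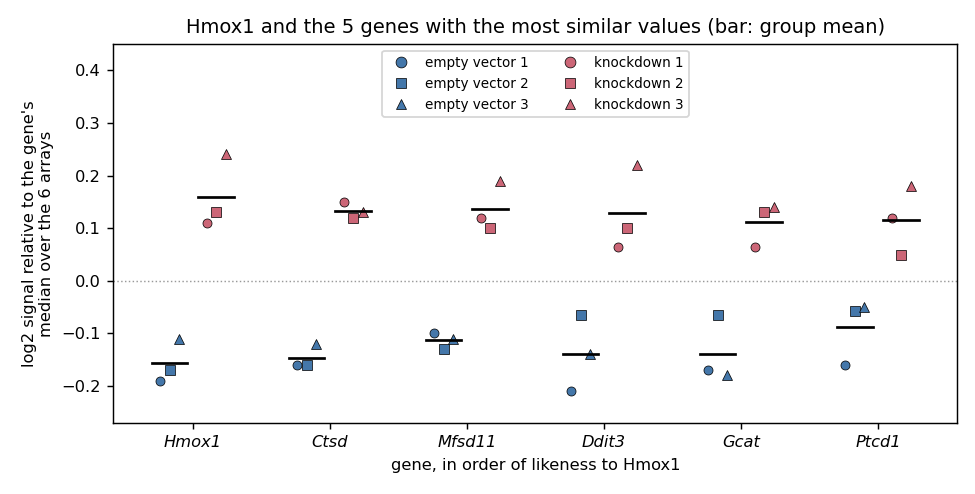
Log2 signal relative to each gene's median over the 6 arrays for Hmox1 and the 5 genes with the smallest root mean square difference from it, in order from left to right, with 3 empty vector arrays (blue), 3 knockdown arrays (red) and group means (bars). In each gene the knockdown arrays lie above the empty vector arrays, and all but Ctsd are highest on knockdown array 3.

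As USF1 and USF2 bind CACGTG, promoters were searched for it. RefSeq sequences of build GRCm38.p6, from 250 bases before to 50 bases after a start site, were matched for 6 of the 10 genes (Hmox2, Blvra, Blvrb, Alas1, Tfrc and Fth1), with 12 start sites in all. CACGTG, which reads the same on both strands, was in 0 of these 12 windows, against 7.15% of all 32851 windows. The looser E-box CANNTG, which includes CACGTG, was in 7 of the 12, against 72.3% of all windows. Each of the 6 genes had at least 1 window with it, against 75% of all genes with a window. The core of the element that NRF2 binds with small MAF proteins, searched as TGACNNNGC on both strands, was in 1 window, that of Blvra, against 12.4%. That no match was found says only that these letters are not in these windows. Hmox1, Fech, Slc40a1 and Slc11a2 had no window and were not searched, so the search says nothing about them. Among the further listed genes, the NRF2 and heat shock lists included, 12 of 66 with a window held CACGTG. The share was 10.6% of the 13071 tested genes with a window and 8.09% of all 27025 genes with one. The 66 were not limited to tested genes. Among the 12 were Urod, Uros and Alad of heme synthesis, and Alad, the second enzyme of the chain, had a change of 0.047 ± 0.044 (SE). Over all tested genes the median change was -0.0033 with CACGTG and -0.0012 without.

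The 120 bases before the start site are shown for Blvra, the only one of the 6 genes searched with a TGACNNNGC match, and for Urod and Alad, neighbours in heme synthesis that hold the USF motif and had changes of opposite sign. Capitals mark the match, whose first base is at position -49 from the start in Blvra and Urod and at -105 in Alad. In Blvra it lies on the opposite strand. The sequences read 5′ to 3′ along the gene's strand, at chr2:127070537-127070656 (plus strand), chr4:116994414-116994533 (minus strand) and chr4:62520064-62520183 (minus strand) of GRCm38.p6.
Blvra: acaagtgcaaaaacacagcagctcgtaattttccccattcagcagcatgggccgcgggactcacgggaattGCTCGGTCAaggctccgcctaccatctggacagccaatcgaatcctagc
Urod: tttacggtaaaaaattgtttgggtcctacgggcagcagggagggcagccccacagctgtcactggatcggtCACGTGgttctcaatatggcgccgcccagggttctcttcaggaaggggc
Alad: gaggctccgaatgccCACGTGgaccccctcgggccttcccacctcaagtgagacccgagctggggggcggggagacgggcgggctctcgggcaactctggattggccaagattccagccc

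Markers of other cells were read beside these genes, since macrophages, which degrade the heme of red cells, carry much Hmox1. Of 12 macrophage and blood markers 8 were measured, 0 of them in the brighter class. Their list median relative to the empty vector mean lay between -0.037 and 0.0052 on the empty vector arrays and was 0.10, 0.071 and 0.00017 on knockdown arrays 1, 2 and 3. The median change was 0.057 (0.033 without knockdown array 2), with 8 of 8 above 0, 0 past the adjusted threshold and 0 at an unadjusted p under 0.05 in limma. On knockdown array 3, where Hmox1 was highest, this median was the lowest of the knockdown arrays. The median rests on 8 genes outside the brighter class, and its relation to Hmox1 was not tested. Erythroid markers (5 of 10 measured) had a median change of 0.055, and -0.014 without knockdown array 2. Markers of glia, also 8 of 8 above 0, had 0.076 (0.16 on knockdown array 2), of endothelium and epithelium 0.049 and of fibroblasts 0.024. Without knockdown array 2 these were 0.035, -0.023 and -0.033. The part of these markers in the result was not tested. Of 13 measured neuroblast and sympathetic markers, 11 were in the brighter class, at a median change of -0.031 (0.013 without knockdown array 2). Their changes ran from -0.25 to 0.062, and 0 passed the adjusted threshold in limma. At an unadjusted p under 0.05 were 0 higher and 2 lower, against 1.60% and 2.65% of all genes. The groups did not overlap for 1 higher and 2 lower, against 4.33% and 5.95% of all genes. As levels are not kept, the cell type could not be checked further.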

How the data were processed

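RNA was prepared with a Qiagen RNeasy kit and labelled with Ambion and Affymetrix kits, per the labels' protocols. The authors deposited log2 values of 22891 transcript clusters on 6 arrays, each cluster centred on its median (0 within 5e-07). No source used here gives their background correction, normalization or filters. Base 2 was inferred: array differences came in whole steps (tolerance 0.05) of the single-precision rounding of values in the range 4 to 16, usual for log2 signals. The same rounding gave the brightness classes.

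Groups came from the sample titles. The 18087 clusters with 1 gene symbol in the platform annotation were averaged to 16583 genes. The fit across all genes used limma 3.58.1 with lmFit and eBayes (R 4.3.3), with Benjamini-Hochberg adjustment over all of them, after a test on simulated data. A change had a median standard error of 0.0561, which the number of arrays limits. Figures used Python 3.11.15 and matplotlib 3.10.9.

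The genes and lists were chosen with earlier results of these data known. The naming rule took the 10 genes, both targets, the 3 further genes with the smallest p of each list, listed genes at an unadjusted p under 0.05 and the 5 genes most like Hmox1. Nfe2l2, Alad, Gclm and Sqstm1 were added after their values were seen. Alternatives were quantile normalization, centred arrays, robust variance, array weights, a replicate block, the brighter class, unaveraged clusters and leaving out each array.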

Additional observations from a re-analysis of the deposited data

How the results depend on the processing

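The change of Hmox1 lay between 0.27 and 0.37 over 13 alternatives. Of the other genes, Hmox2, Blvra, Blvrb, Tfrc and Fth1 kept their sign in all alternatives that could be run (12 for Blvra, which is in the dimmer class, and 13 for the others). Alas1 and Slc40a1 each turned sign in 1 of 13, Slc11a2 in 1 and Fech in 2. With array quality weights, where knockdown array 1 had a weight of 33 and the other knockdown arrays 0.136 and 0.441, 1 of the 10 genes (Hmox1, chosen on its p in this comparison, so that nothing is read from the count) and 2 of the 76 further listed genes (Cpox and Keap1) passed the threshold in limma, as did 1111 genes overall. At an unadjusted p under 0.05 the counts were then 3 and 13, against 26.3% of all genes, and Usf1 (-0.62, limma adjusted p = 3.45e-04) and Usf2 (-0.46, 6.35e-04) passed as well. The knockdown mean in that fit is in effect that of 1 array. Same-numbered arrays did not deviate together (correlations 0.00311, 0.0819 and 0.0364), so the numbers were not taken as pairs. With the replicate block the change of Hmox1 was 0.32, and 0 of all genes passed the threshold. At an unadjusted p under 0.05 were 2 of the 10 genes (Hmox1 and Blvra) and 0 of the 76, against 3.84% of all genes. Quantile normalization gave 2 of the 76 at such a p (Cpox and Keap1), against 5.41% of all genes. The brighter class alone, which holds 49 of the 76, gave 2 (Cpox and Lyrm4), against 7.69% of its genes. Without 1 array, the count at an unadjusted p under 0.05 ranged from 1 to 2 for the 10 genes (2 without knockdown array 1, with Blvra) and from 0 to 4 for the 76 (4 when empty vector array 1 was left out, 3 for knockdown array 2, and 0 for empty vector arrays 2 or 3). The number of the 10 whose groups did not overlap then ran from 5 to 7 (7 without knockdown array 1), against 16.1% to 23.9% of all genes, a higher share than the 10.3% with all arrays. Usf1 lay between -0.62 and -0.49 and Usf2 between -0.43 and -0.35. The cause of these differences was not tested. Slide was not given and the values were already processed, so a slide block and another background correction were not run.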
